A study of Mus musculus with 12 samples.

Results

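The genes described here are 10 genes of the bone morphogenetic protein (BMP) pathway, measured in 6 sorted cell populations of the mouse small intestine. They are the ligand gene Bmp4, the receptor genes Bmpr1a and Bmpr2, the signal-transducing Smad1 and Smad5, the inhibitory Smad6 and Smad7, and the target genes Id1, Id2 and Id3. They were chosen by name, and 16 of the 45141 probe sets of the array carry their annotation. Tests ran over 17097 genes, each read by its brightest single-gene probe set, and all 10 genes were among them. The populations were untreated primary cells sorted at 3 levels of Mex3a (High, Low and Neg, for negative), each at 2 levels of Lgr5 (High and Low). These levels are called gates here. The Mex3a protein binds RNA, and Lgr5 is a receptor that marks crypt base stem cells. Each population was measured in the biological replicates MR793 and MR820, so that 12 arrays give n = 2 per population. Each sample held 2000 cells, whose RNA was amplified for 22 cycles. What was used to sort cells by Mex3a, and the strain, age and number of mice behind each replicate, were not stated in the labels, so the p-values measure the spread between these samples.

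BMP ligands bind pairs of type I and type II receptors, here Bmpr1a and Bmpr2. The active receptors phosphorylate Smad1 and Smad5, which enter the nucleus with Smad4 and bind DNA at Smad sites. Id genes, whose products hold basic helix-loop-helix factors off DNA, are direct targets of this signal, and Smad6 and Smad7 are induced by it and restrain it. In the gut, BMP signalling is known to be low at the crypt base, where antagonists from the surrounding mesenchyme hold it back, and to rise towards the villus.

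RefSeq promoters of build GRCm38.p6, each spanning 250 bases before to 50 after a gene's start, were at hand for 8 of the 10 genes and not for Id1 or Smad7. They are shown because Smad sites are the DNA through which the pathway acts on its targets and on its own components. The GC-rich element GGCGCC, known to be bound by Smad1 and Smad5, reads the same on both strands. It was present in 11.9% of the 32851 mouse promoters of this length, and in those of Id2, Bmpr1a, Bmpr2 and Smad5. The palindrome of the Smad box, GTCTAGAC, was present in 0.213% of promoters and in that of Smad6. The following 30-base stretches are written 5′ to 3′ on the gene's strand with the element in capitals.
Id2, chr12:25096306-25096335, minus strand, element 231 bases before the start: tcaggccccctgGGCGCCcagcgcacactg
Bmpr1a, chr14:34502727-34502756, minus strand, 198 bases before the start: tgcgcgcgcgccGGCGCCtcttgctcgccc
Bmpr2, chr1:59764162-59764191, plus strand, 105 bases before the start: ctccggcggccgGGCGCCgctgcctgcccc
Smad5, chr13:56703021-56703050, plus strand, 19 bases before one listed start and 23 after another: ccccggcgagcgGGCGCCgagcgcttgtcc
Smad6, chr9:64022045-64022074, minus strand, 4 bases before the start: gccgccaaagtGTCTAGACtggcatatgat
These matches describe the letters only. The short Smad box GTCT, found in 88% of promoters, does not separate genes.

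One array, that of Mex3a-high Lgr5-high cells from MR793, stood apart from the rest. It correlated with the other arrays at 0.892 to 0.914, against 0.966 to 0.996 among the other 11, and 74.6% of all genes lay outside the range of the other 11 on it. Of the 10 BMP genes 7 did so, and 4 of them differed by more than 1 log2 unit from the mean of the other 11. The differences between the Lgr5 gates are therefore given with and without this array. The arrays lay on 3 strips, and the strips nearly follow the Lgr5 gates: strip 1 held only Lgr5-high and strip 3 only Lgr5-low samples, so that Lgr5 and strip can hardly be told apart. A list of 5 crypt base stem cell genes followed the Lgr5 label, with a mean level of 10.6 to 10.8 on the other 5 Lgr5-high arrays, 10.5 on the one that stood apart and 9.10 to 9.74 on the Lgr5-low arrays. The list holds Lgr5 itself, which read 6.37 to 10.2 on the other 11 arrays. Because the cells were sorted by Lgr5, part of this separation follows from the sort and is no separate check of the label. The samples are bulk RNA, in which fewer cells of a type and less RNA per cell cannot be told apart.

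Between the Lgr5 gates, which set cells with much of the stem cell marker against cells with little, none of the 10 BMP genes passed the test for a change. Limma called 0 of 10 at an adjusted p under 0.05, beside 1.38% of all genes tested, with adjusted p from 0.375 (Id3) to 0.982 (Smad7) and 1 of 10 at an unadjusted p under 0.05. The differences, Lgr5-high minus Lgr5-low over the 3 Mex3a gates, ran from -0.46 (Smad1) to 0.25 (Bmp4) on the log2 scale. Their median was -0.04, beside 0.04 for all genes. Without the array that stood apart limma again called 0 of 10, beside 5.12% of all genes, and the differences ran from -0.34 (Id3) to 0.30 (Smad5). None of the 10 genes had levels that separated the 6 Lgr5-high from the 6 Lgr5-low arrays, beside 3.04% of all genes that did.

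**Figure D1:**
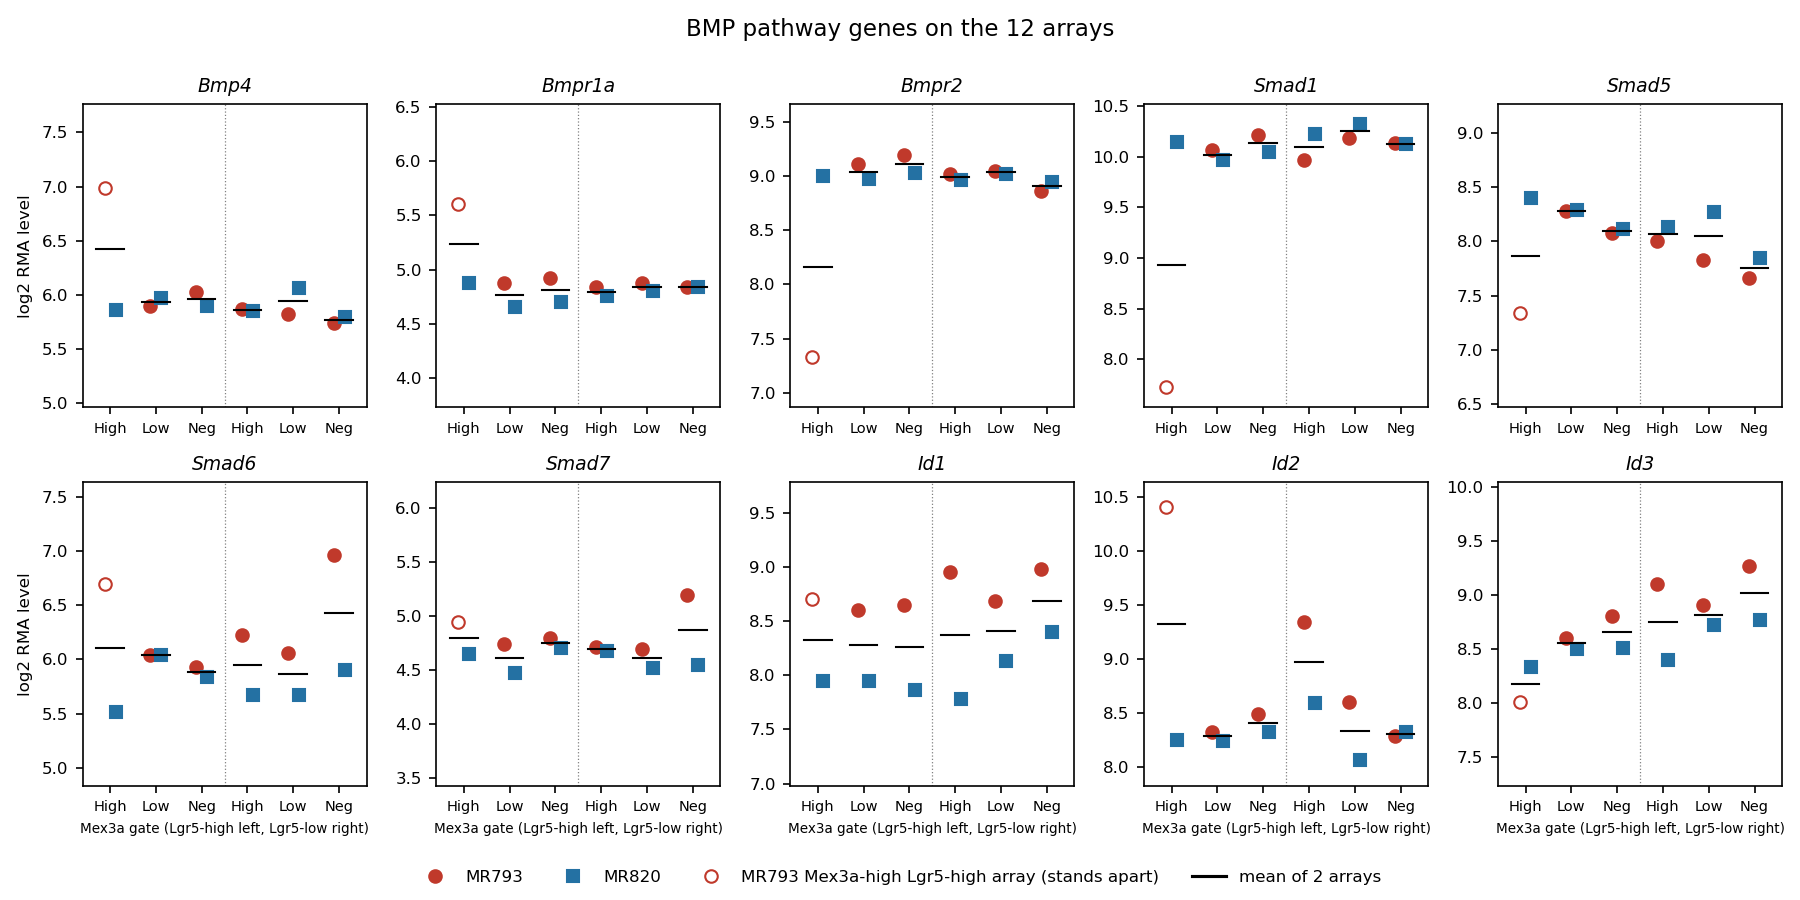
Log2 RMA level (y axis) of the 10 BMP pathway genes in the 6 populations (x axis, Mex3a gate, Lgr5-high left and Lgr5-low right of the dotted line). Points are single arrays, circles MR793 and squares MR820, the open circle is the array that stood apart, and bars are means of 2. Id1 lies higher on every MR793 array (8.60 to 8.98) than on any MR820 array (7.78 to 8.40).

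Bmp4, the ligand, varied within a narrow range once the array that stood apart was set aside. Its level there was 6.98, and on the other 11 arrays it was 5.74 to 6.06, with a median of 5.87. These values lie close to the arrays' medians over all probe sets, which were 5.83 to 6.04. Lgr5-high minus Lgr5-low was 0.25 ± 0.17 (log2 difference ± SE, limma adjusted p = 0.534) with 12 arrays and 0.06 ± 0.07 (adjusted p = 0.673) with 11. The 8 mesenchymal and endothelial marker genes, from cell types known to make Bmp4, had a mean level of 6.07 on the array that stood apart and 5.33 to 5.77 on the others; their part in the Bmp4 value was not tested.

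The receptors showed the same arrangement of a narrow range on 11 arrays and one distant array. Bmpr2, the type II receptor, read 7.33 on the array that stood apart and 8.87 to 9.20 on the others, and its other probe set read 6.51 there and 7.18 to 7.53 on the others. Its Lgr5 difference was -0.20 ± 0.24 (adjusted p = 0.668) with 12 arrays and 0.07 ± 0.07 (adjusted p = 0.600) without that array, so 1 array set its sign. Bmpr1a, the type I receptor, read 5.60 there and 4.65 to 4.92 on the others, all below the array medians, where RMA values compress differences. Its Lgr5 difference was 0.11 ± 0.12 (adjusted p = 0.628) and -0.01 ± 0.06 (adjusted p = 0.964) without that array. With 11 arrays the 95% interval of the Lgr5 difference was -0.08 to 0.23 for Bmpr2 and -0.15 to 0.13 for Bmpr1a.

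Smad1, which carries the signal from the receptors to DNA, read 7.72 on the array that stood apart and 9.97 to 10.32 on the others. Its other probe set read 6.70 there and 7.36 to 7.88 elsewhere. The Lgr5 difference was -0.46 ± 0.33 (adjusted p = 0.542) with 12 arrays and -0.06 ± 0.07 (adjusted p = 0.683, 95% interval -0.22 to 0.10) with 11, so most of the 12-array value came from 1 array.

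Smad5, which transduces the signal alongside Smad1, read slightly higher in Lgr5-high samples and passed the test in 1 setting. In MR793 it read 7.34 (the array that stood apart), 8.28 and 8.08 in Mex3a-high, -low and -negative Lgr5-high cells, and 8.00, 7.82 and 7.67 in the matching Lgr5-low cells. In MR820 it read 8.40, 8.29 and 8.12 in Lgr5-high and 8.13, 8.28 and 7.84 in Lgr5-low cells. In each gate of each replicate other than the distant array, the Lgr5-high sample was the higher, but in Mex3a-low cells of MR820 by hardly anything, and the gates overlapped. The Lgr5 difference was 0.13 ± 0.18 (adjusted p = 0.717) with 12 arrays and 0.30 ± 0.10 (adjusted p = 0.118) with 11. With the replicate as a block and 11 arrays, Smad5 was the only one of the 10 genes called in this comparison, at 0.28 ± 0.08 (adjusted p = 0.0484), in a fit that called 11.4% of all genes. That call held in 1 of 10 fits that each left out a further array, with adjusted p from 0.0292 to 0.168. The other Smad5 probe sets differed from each other: with 11 arrays one was 0.40 ± 0.08 higher in Lgr5-high cells (adjusted p = 0.0225 in a fit of all probe sets) and the other, which read 4.73 to 5.64, differed by -0.0031.

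**Figure D2:**
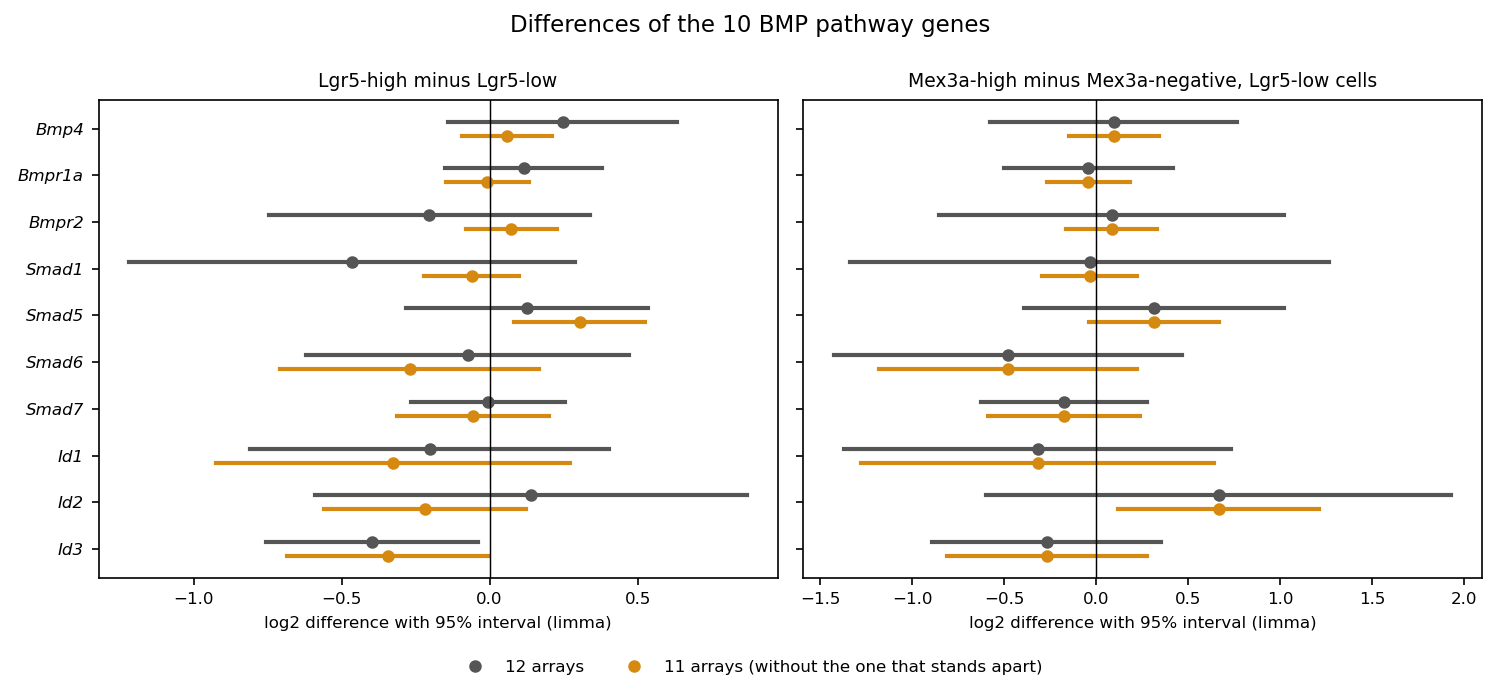
Log2 differences (x axis) of the 10 BMP pathway genes (y axis) between Lgr5-high and Lgr5-low cells (left) and between Mex3a-high and Mex3a-negative cells of the Lgr5-low gate (right), with limma's 95% intervals, for 12 arrays (grey) and for 11 (orange). In the left panel Smad1 moves from -0.46 to -0.06 and Smad5 from 0.13 to 0.30 when the array that stood apart is left out.

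The inhibitory Smads varied without following either gate. Smad6, which blocks the BMP branch, read 5.51 to 6.96, highest in Mex3a-negative Lgr5-low cells of MR793 (6.96, against 5.90 in MR820) and on the array that stood apart (6.69). Its Lgr5 difference was -0.07 ± 0.24 (adjusted p = 0.878), and -0.27 ± 0.19 (adjusted p = 0.481) with 11 arrays. Smad7, which blocks both the BMP and the TGF-beta branch, read 4.47 to 5.19, below the median of every array, and was likewise highest in Mex3a-negative Lgr5-low cells of MR793. Its Lgr5 difference was -0.01 ± 0.12 (adjusted p = 0.982), and -0.06 ± 0.11 (adjusted p = 0.833) with 11 arrays.

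Among the Id genes, the direct targets of the signal, Id3 came closest to the threshold between the Lgr5 gates. Id3 read 8.01, 8.60 and 8.81 in Mex3a-high, -low and -negative Lgr5-high cells of MR793, and 9.10, 8.91 and 9.27 in the matching Lgr5-low cells. In MR820 it read 8.33, 8.50 and 8.51 in Lgr5-high and 8.40, 8.72 and 8.77 in Lgr5-low cells. Within each replicate and Mex3a gate the Lgr5-low sample was the higher, 6 of 6, but the gates overlapped between replicates. The share of all genes with 1 sign in 6 of 6 such pairs was not counted. The Lgr5 difference was -0.40 ± 0.16 (adjusted p = 0.375), -0.62 in MR793 and -0.18 in MR820, and -0.34 ± 0.15 (adjusted p = 0.238) with 11 arrays. With the replicate as a block and 11 arrays it was -0.29 ± 0.09 (adjusted p = 0.0692), and it passed the test in 2 of 10 such fits that each left out a further array. In the pair of Mex3a-high samples of MR820, which shared a strip, Id3 differed by -0.06 between the Lgr5 gates.

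Id1 gave the clearest difference among the 10 genes, and it lay between the replicates and not between the gates. In MR793 Id1 read 8.71, 8.60 and 8.65 in Mex3a-high, -low and -negative Lgr5-high cells, and 8.96, 8.69 and 8.98 in the Lgr5-low cells. In MR820 it read 7.95, 7.95 and 7.87 in Lgr5-high and 7.78, 8.13 and 8.40 in Lgr5-low cells. The lowest MR793 array was above the highest MR820 array, and the array that stood apart in other genes was not distant here. By population, Id1 averaged 8.33 ± 0.53, 8.28 ± 0.46 and 8.26 ± 0.55 (mean ± SD, n = 2) in Mex3a-high, -low and -negative Lgr5-high cells and 8.37 ± 0.83, 8.41 ± 0.39 and 8.69 ± 0.41 in Lgr5-low cells. No neighbours in that order differed beyond these SDs. The Lgr5 difference was -0.20 ± 0.27 (adjusted p = 0.702), and -0.20 ± 0.11 (adjusted p = 0.457) with the replicate as a block. With 11 arrays it was -0.33 ± 0.26 (adjusted p = 0.537), and -0.20 ± 0.09 (adjusted p = 0.207) with the block.

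The replicates were compared after these values had been seen, by the coefficient of the replicate block. Id1 was 0.75 ± 0.11 higher in MR793 (adjusted p = 0.0392) and was the only one of the 10 genes called, beside 0.357% of all genes. It was higher in 6 of 6 populations, by 0.56 to 1.17, beside 11.4% of all genes with 1 sign in all 6 and 1.84% without overlap between replicates. Without the array that stood apart Id1 was 0.75 ± 0.09 higher (adjusted p = 0.000966) and Id3 0.36 ± 0.09 higher (adjusted p = 0.0390), so that 2 of 10 were called beside 7.79% of all genes. On these 11 arrays, leaving out any 1 further array kept Id1 called, at 0.65 to 0.80 (limma adjusted p from 0.000339 to 0.00545). Id3 stayed called in 3 of 11 such fits. Leaving out either array of a population gave the same difference, because the block compares the replicates within populations. The 11 fits are therefore not 11 separate checks. The call of the 12-array fit was less secure, and it was lost in 11 of 14 alternatives. These were the strip as a further block and every fit that left out 1 array of another population than the distant array's. The alternatives that kept the call all left out an array of that population. They gave the same difference, and leaving out the distant array is the same fit as the 11 arrays with the block. The other fits without 1 array come in pairs with the same difference. The 14 alternatives are therefore not 14 separate checks either. In the 2 populations whose replicates lay on the same strip, Id1 differed by 0.65 (Mex3a-low Lgr5-high) and 0.58 (Mex3a-negative Lgr5-low). Smad6 and Smad7, the pathway's feedback inhibitors, were also higher in MR793 in 6 of 6 populations, by 0.00078 to 1.18 and by 0.035 to 0.65, without passing the test (adjusted p = 0.0830 and 0.0944 with 11 arrays). Smad5 lay the other way in 6 of 6 populations, with MR793 minus MR820 from -1.06 to -0.018, and did not pass the test either (adjusted p = 0.267 with 11 arrays).

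Immediate early and dissociation response genes, many of which cells switch on soon after handling, separated the replicates in the same direction. Their mean level over the 9 of 10 listed genes measured was 10.3 to 10.7 on the other 5 MR793 arrays, 9.50 on the one that stood apart, and 8.90 to 9.07 on the MR820 arrays. With 11 arrays 9 of 9 were called higher in MR793, with a median of 1.07, in the fit that called 7.79% of all genes. In the population with the array that stood apart, MR793 minus MR820 was -0.52 for Fos, -0.90 for Jun, -0.14 for Egr1 and -0.37 for Dusp1. The rest of these genes were higher in MR793 there too. The part of these genes in the Id1 difference was not tested.

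**Figure D3:**
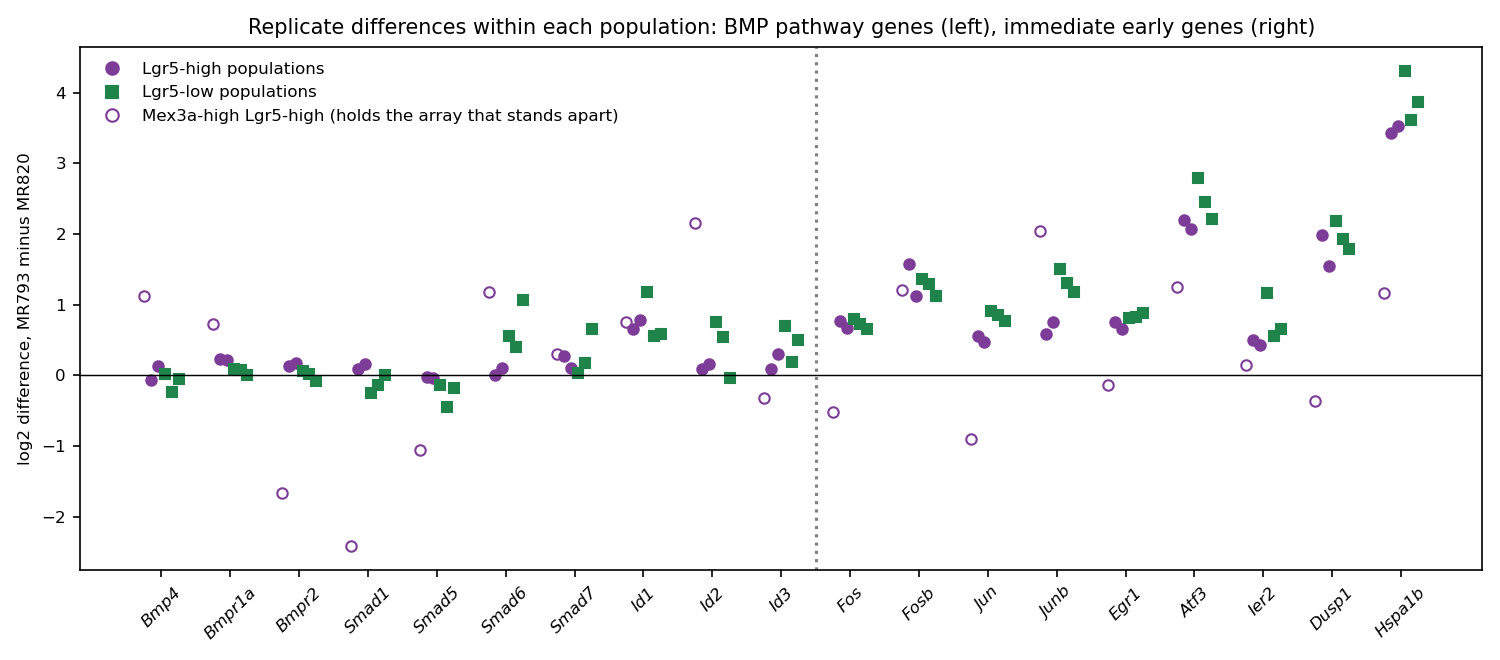
MR793 minus MR820 on the log2 scale (y axis) within each of the 6 populations, for the 10 BMP pathway genes (left of the dotted line) and 9 immediate early genes (right). Circles are Lgr5-high and squares Lgr5-low populations, and open circles the population with the array that stood apart. For Id1 all 6 points lie between 0.56 and 1.17, while Smad1 and Bmpr2 lie near 0 except for the open circles.

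Among the Mex3a gates, the genes of the pathway gave no call in the fit of 12 arrays. In Lgr5-high cells limma called 0 of 10 members, beside 0% of all genes, in each of the 3 pairs of Mex3a gates, and 661, 621 and 79 genes had an unadjusted p under 0.05 in Mex3a-high against -negative, -high against -low and -low against -negative cells. In Lgr5-low cells it called 0 of 10 in each pair, beside 1.73%, 0.889% and 0.0468% of all genes in the same order. Between Lgr5-high and Lgr5-low cells within Mex3a-high, -low and -negative cells the count was again 0 of 10, beside 1.37%, 0.0468% and 0% of all genes (371 at an unadjusted p under 0.05 in the last). The test of whether the change with Mex3a differs between the Lgr5 gates called 0 of 10 (adjusted p from 0.865 to 0.930, beside 0.398% of all genes called).

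Id2, whose product restrains differentiation in many lineages, had, with the distant array set aside, its highest mean level in Mex3a-high Lgr5-low cells. There it read 9.34 in MR793 and 8.59 in MR820. It read 8.60 and 8.06 in Mex3a-low and 8.29 and 8.32 in Mex3a-negative cells of the same gate. In Lgr5-high cells it read 8.25 to 8.49, apart from 10.40 on the array that stood apart. The other Id2 probe sets did not share that rise. One read 5.04 there, below the 5.57 to 6.23 of the other 11 arrays, and one 5.37, within their 4.83 to 5.42. Both Mex3a-high Lgr5-low samples thus lay above the Mex3a-negative ones, by 1.05 in MR793 and 0.27 in MR820, and the MR793 pair shared a strip. The difference was 0.66 ± 0.56 (adjusted p = 1.00) with 12 arrays and 0.66 ± 0.24 (adjusted p = 0.182) with 11. With the replicate as a block and 11 arrays Id2 was called at 0.66 ± 0.17 (adjusted p = 0.0317), the only one of the 10 genes, in a fit that called 11.9% of all genes. That call was lost without the Mex3a-high or the Mex3a-negative Lgr5-low array of MR793, where the difference was 0.38 and 0.46. Without the matching MR820 arrays the difference was 0.94 and 0.87, so its size leaned on MR793. Fits without an array of another population left it at 0.66 and could say little about this call. The other Id2 probe sets differed by 0.22 ± 0.16 (adjusted p = 0.563) and 0.27 ± 0.15 (adjusted p = 0.422) with 11 arrays in the fit of all probe sets, in the same direction. Against Mex3a-low Lgr5-low cells Id2 was 0.64 ± 0.17 higher with 11 arrays and the block (adjusted p = 0.0639), and it passed the test in 3 of 11 fits without 1 further array, with differences of 0.36 to 0.92 and adjusted p from 0.0189 to 0.466.

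Marker genes of some other cell types moved with this gate, in the fit of 12 arrays that called 1.73% of all genes. The 5 tuft cell genes, 5 of 5 called higher in the Mex3a-high part of the Lgr5-low gate than in the Mex3a-negative part with a median of 5.18, had a mean level of 11.2 in both Mex3a-high Lgr5-low samples and of 5.94 and 5.93 in the Mex3a-negative ones. The 5 enteroendocrine genes, 4 of 5 called with a median of 3.85, had a mean of 11.1 and 10.7 in Mex3a-high and of 7.05 and 6.27 in Mex3a-negative samples of the gate. Of the 3 Paneth cell genes measured 2 were called higher, and of 4 immune genes 2. The part of these cell types in the Id2 level was not tested.

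Beyond the 10 genes, 67 of 76 listed genes of the BMP and TGF-beta pathways were measured. Bmp2, a BMP ligand made by gut epithelium, fell in Lgr5-high relative to Lgr5-low cells. It was the only one of the 67 called in that comparison with 12 arrays, 0 higher and 1 lower, which is 1.49% beside 1.38% of all genes. Bmp2 read 5.05 and 5.04, 5.04 and 4.95, and 4.73 and 4.99 (MR793 and MR820) in Mex3a-high, -low and -negative Lgr5-high cells. In the Lgr5-low gate it read 6.93 and 6.76, 5.79 and 5.30, and 6.08 and 5.29. The gates did not overlap. The difference was -1.06 ± 0.15 (adjusted p = 0.00759) and -1.06 ± 0.15 with 11 arrays (adjusted p = 0.00578). With the strip as a block, alone or with the replicate, it was -0.75 and the call was lost (adjusted p = 1.00). In Mex3a-high cells alone it was -1.80 ± 0.25 (adjusted p = 0.00752), -1.72 in the MR820 pair that shared a strip, and -1.57 ± 0.30 (adjusted p = 0.0754) with the strip as a block. The Lgr5-high values lie below the array medians, where RMA compresses differences.

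Bambi, a decoy receptor without kinase domain that dampens BMP and TGF-beta signals, rose in Mex3a-high Lgr5-low cells. It read 6.87 and 6.82 there, 5.88 and 5.49 in Mex3a-low and 5.35 and 5.32 in Mex3a-negative cells of the gate. In Lgr5-high cells it read 5.84 and 6.20, 5.87 and 5.74, and 5.52 and 5.42 in Mex3a-high, -low and -negative cells. Mex3a-high minus Mex3a-negative was 1.51 ± 0.18 among Lgr5-low cells (adjusted p = 0.00189), 1.52 in MR793 and 1.50 in MR820, and it was the only one of the 67 called with 12 arrays, 1.49% beside 1.73% of all genes. With 11 arrays it was 1.51 ± 0.13 (adjusted p = 0.00018). Mex3a-high minus Mex3a-low was 1.16 ± 0.18 (adjusted p = 0.0191, beside 0.889% of all genes called) and 1.16 ± 0.13 with 11 arrays (adjusted p = 0.00182). With 12 arrays that call was lost in 10 of 23 alternatives, with adjusted p up to 0.251, 9 of them fits without 1 array. The difference of this change between the Lgr5 gates was -0.95 ± 0.26 and did not pass the test (adjusted p = 0.399). The tuft and enteroendocrine genes rose in the same samples, and their part in the Bambi and Bmp2 levels was not tested.

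**Figure D4:**
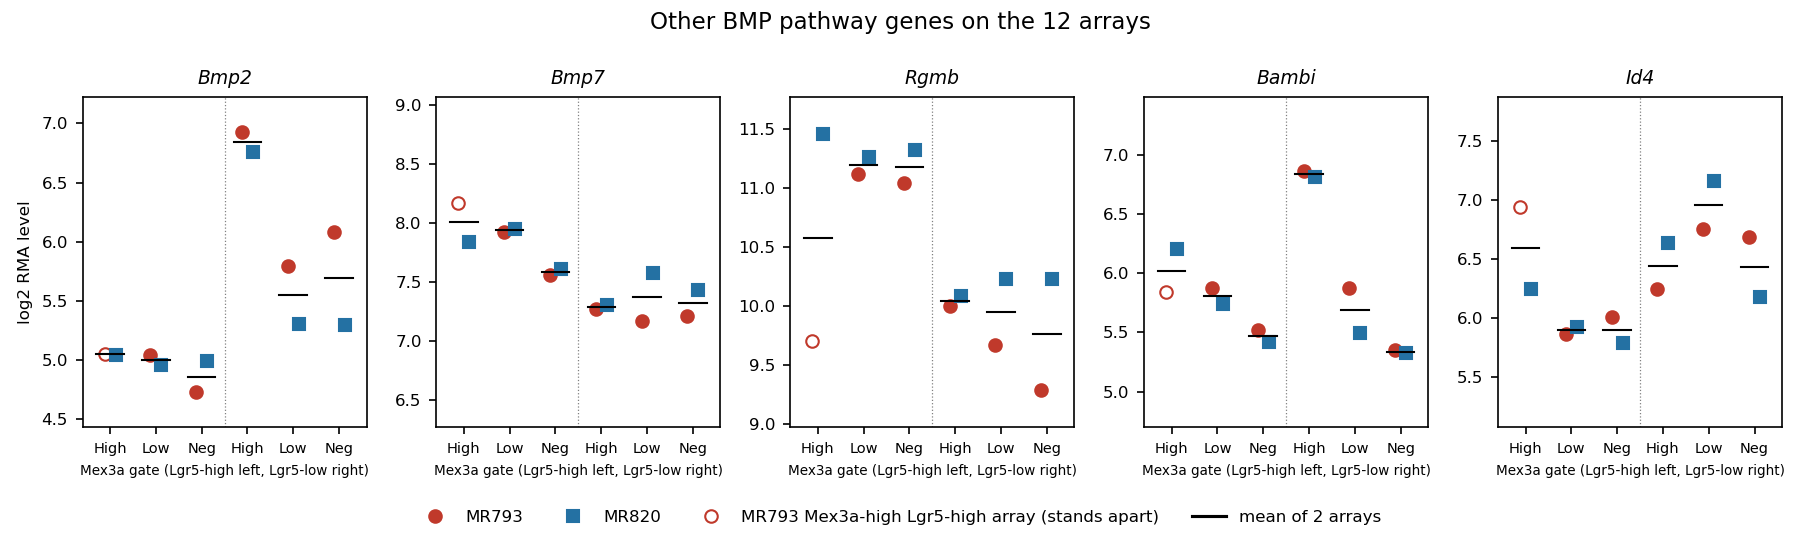
Log2 RMA level (y axis) of Bmp2, Bmp7, Rgmb, Bambi and Id4 in the 6 populations (x axis, Mex3a gate, Lgr5-high left and Lgr5-low right of the dotted line). Symbols are single arrays, circles MR793 and squares MR820, the open circle is the array that stood apart, and bars are means of 2. Bmp2 and Bambi are highest in both Mex3a-high Lgr5-low samples (6.93 and 6.76, and 6.87 and 6.82).

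Without the array that stood apart, 5 of the 67 genes were called higher and 2 lower in Lgr5-high cells, 10.4% beside 5.12% of all genes. Rgmb, a BMP co-receptor, was the one with the greatest difference. It read 11.46, 11.11, 11.26, 11.04 and 11.32 on the other 5 Lgr5-high arrays and 9.28 to 10.23 on the Lgr5-low arrays, and 9.70 on the array that stood apart. Its difference was 1.07 ± 0.29 (adjusted p = 0.148) with 12 arrays and 1.36 ± 0.17 (adjusted p = 0.00353) with 11. With 12 arrays and the replicate as a block Rgmb, Tgif1 and Fstl1 were called higher and Bmp2 lower, 5.97% of the 67 genes beside 2.04% of all genes, with adjusted p of 0.0462, 0.0412, 0.0493 and 0.0072. Bmp7, another ligand, was 0.46 ± 0.09 higher with 11 arrays (adjusted p = 0.025), and 0.52 ± 0.12 higher (adjusted p = 0.0863) with 12. The activin receptor gene Acvr2b was 0.36 higher with 11 arrays (adjusted p = 0.0202), and Tgif1 and Tgif2, which encode repressors of Smad-dependent transcription, were 0.50 (adjusted p = 0.0253) and 0.67 higher (adjusted p = 0.0157). Id4, the remaining member of the Id family, was 0.60 ± 0.13 lower in Lgr5-high cells with 11 arrays (adjusted p = 0.0320), and its 12-array value was -0.48 ± 0.16 (adjusted p = 0.277). With the replicate as a block and 1 further array left out, the Id4 difference was -0.73 to -0.51, and some of these fits did not call it. Bmp2 was the other one called lower. None of these calls with 11 arrays was fitted with the strip as a block, which took away the 12-array call of Bmp2. In the Mex3a-high against -negative comparison of Lgr5-low cells 2 of 67 were called higher with 11 arrays, Bambi and Bmp2 (1.15 ± 0.24, adjusted p = 0.0269), 2.99% beside 5.29% of all genes.

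The genes of smallest p in the other roles did not pass the Lgr5 comparison with 12 arrays and no block. They were Tgif1 of the TGF-beta branch (0.50, adjusted p = 0.0795), the inhibitor Tob1 (-1.04, adjusted p = 0.373), the extracellular antagonist Fstl1 (1.10, adjusted p = 0.458) and the TGF-beta Smad gene Smad2 (-0.56, adjusted p = 0.553).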

How the data were processed

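RNA from 12 samples was measured on Affymetrix arrays. RMA made the deposited values, which are on a log2 scale, according to the submitters' processing notes, where no version is named; they were analysed unchanged. Of 45141 probe sets, 29449 have a row in the probe annotation, 28898 of them naming 1 gene and 551 several, and each gene was read by its single-gene probe set of highest mean, with 104 control probe sets left out. Array data carry no count depth, and the number of arrays limits the precision.

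Limma 3.58.1 in R 4.3.3 was fitted to the 6 population means over 17097 genes, without a block, with the eBayes trend and Benjamini-Hochberg adjustment. The threshold for a call was an adjusted p under 0.05, in 11 comparisons. The fit was also run on simulated data. The outcome is not given here, and that run is not used as evidence that the fit suits data with the array that stood apart. SE is limma's moderated standard error. Whether the replicate labels pair the populations was checked: the replicate differences of 14 of 15 pairs of populations correlated at over 0.1 (lowest -0.115, median 0.382), and of 10 of 10 without the Mex3a High Lgr5 High population (0.374 to 0.566). The pairing was thus met without that population only, and fits with the replicate as a block are named where they change a call.

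The 10 genes and the wider lists were chosen with earlier results of these data known, and are not independent evidence. Named genes are all 10, and of the wider list those called between the Lgr5 gates or between Mex3a-high and Mex3a-negative cells, and for a role with fewer than 4 called the one of smallest p between the Lgr5 gates. Genes called only with 11 arrays were named after their values were seen. Alternatives were the replicate and strip as blocks, renewed quantile normalization, median centring, array weights, no trend, the mean of probe sets, every probe set, genes above the median level, only the populations compared, and each array left out. The fits of 11 arrays with the block, the comparison of the replicates, and the fits without 1 further array were added after seeing the data.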

Additional observations from a re-analysis of the deposited data

How the results depend on the processing

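Of 12 comparisons, the 11 listed and that of the replicates, 5 had 0 called BMP genes under each alternative to the 12 arrays without a block and under the 11 arrays with it; one of these, Mex3a-high against -low Lgr5-low cells, had Id2 called in 3 of 11 fits without 1 further array. Leaving out only the array that stood apart gave 0 in each of the 11. Leaving out 1 array at a time gave 0 to 6 called between the Lgr5 gates over all cells, between the Lgr5 gates in Mex3a-high cells, for Mex3a-high against -negative and against -low Lgr5-high cells, and for the difference between gates. The highest counts appeared only when MR820 lost its Mex3a-high Lgr5-high array. That step leaves the array that stood apart alone in its population, taken to vary like the others. On that array 74.6% of all genes lay outside the range of the other 11. The share of all genes called in that fit is not given here, so these counts cannot be read as a result about the BMP genes. The replicate block with 11 arrays gave 1 called between the Lgr5 gates (Smad5) and 1 for Mex3a-high against -negative Lgr5-low cells (Id2). The replicate block with 12 arrays gave 0 in each of the 11; of the wider genes it added Bmp2 for Mex3a-high against -low Lgr5-low cells (1.30 ± 0.23, adjusted p = 0.0491). Between the replicates, 1 with 12 arrays became 0 with the strip added, 2 with 11 arrays, and 0 to 2 with 1 array left out. Id1 there was 0.62 to 0.79, with adjusted p from 0.000946 to 1.00.

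Between the Lgr5 gates, signs of uncalled genes turned. With the strip as a block, alone or with the replicate block, the difference was -0.20 for Id2, 0.16 for Smad1, -0.15 for Bmpr1a, 0.32 for Bmpr2, -0.24 for Bmp4 and 0.41 for Smad2. With the replicate block and 11 arrays it was -0.17 for Id2 and 0.084 for Bmpr2, and with the mean of probe sets -0.0099 for Id2. With 1 array left out it ran from -0.22 to 0.50 for Id2, -0.050 to 0.30 for Smad5, -0.27 to 0.12 for Smad6, -0.11 to 0.10 for Smad7, -0.0073 to 0.24 for Bmpr1a and -0.48 to 0.074 for Bmpr2. The causes were not tested. Bmp2 lost its call in 3 of 22 alternatives, with the strip, with strip and replicate (both -0.75) and with array weights. Bambi kept its call against Mex3a-negative cells in 23 of 23 and lost that against Mex3a-low cells in 10 of 23. Levels near the array medians for Bmp4, and below them for Bmpr1a and Smad7, limit what could be seen.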

Other observations

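With 11 arrays and the replicate as a block, limma called 11 of the 67 wider genes between the Lgr5 gates (16.4%, beside 11.4% of all genes), 7 between the replicates (10.4%, beside 7.79%) and 7 between Mex3a-high and -negative Lgr5-low cells (10.4%, beside 11.9%). Among them were Hes1, Fstl1 and Tob1, named after their values were seen. Hes1, a Notch target that BMP signals can also induce, was 0.78 ± 0.10 higher in MR793 than in MR820 (limma adjusted p = 0.00121), in 6 of 6 populations, and 0.70 ± 0.16 lower in the Lgr5-low gate when Mex3a-high cells were set against Mex3a-negative ones (adjusted p = 0.0163). Fstl1, a secreted protein that binds BMP ligands, ran the other way between the replicates. It was lower by 1.42 ± 0.20 in MR793 (adjusted p = 0.00189), in 6 of 6 populations, and 1.20 ± 0.20 higher in Lgr5-high cells (adjusted p = 0.00314). Tob1, which binds Smads and restrains their activity, was 1.09 ± 0.15 higher in MR793 (adjusted p = 0.00164). Its level on the array that stood apart was 4.23, below the 5.83 to 8.10 of the others.

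The E proteins Tcf3, Tcf4 and Tcf12 are the partners that Id proteins hold off DNA. They gave 0 of 3 calls between the Lgr5 gates with 12 arrays, beside 1.38% of all genes. On the array that stood apart Tcf3 read 11.42, against 9.55 to 10.04 on the other 11.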
